A study of Mus musculus with 18 samples.

Results

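The 36 forkhead genes other than the Foxp subfamily were examined, out of 21627 protein-coding genes. They were taken by name from a list of forkhead symbols, and an interval was assigned to a gene when it overlapped the gene body or the 2500 bp on either side of it, by at least 1 bp. Bulk CUT&Tag for H3K27me3, which tags the DNA around trimethylated lysine 27 of histone H3, had been run on mouse medial ganglionic eminence (MGE), the ventral forebrain region that gives rise to many cortical interneurons. Each of 12 libraries had its own deposited list of enriched intervals, each interval with a read count. There were 3 libraries per group, labelled as biological replicates: E12.5 WT, E12.5 KO, E15.5 WT and E15.5 KO. The KO genotype was given as Nkx2.1-CreC/+;Ezh2;Ai9F/+, without the state of each Ezh2 allele in that string. All embryos came from Nkx2.1-CreC/C;Ezh2F/+ males mated with Ai9F/F;Ezh2F/+ females, so by the cross the controls also carried a Cre and an Ai9 reporter allele. Cre was driven by Nkx2.1, so cells of the dissected tissue outside that lineage kept Ezh2. MGEs of the same genotype were combined where possible, the E12.5 tissue was the whole MGE, and the E15.5 tissue was the reporter-positive MGE, dissected under fluorescence. Stage and dissection therefore cannot be told apart. Of the 18 samples, the 6 heterozygous ones were not analysed here.

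Forkhead proteins are transcription factors that share a winged-helix DNA-binding domain. Most are switched on in particular lineages, such as Foxa1 and Foxa2 in endoderm and floor plate or Foxc1 and Foxc2 in mesoderm, while the Foxk, Foxj2, Foxj3 and Foxm1 genes are active in many cell types, Foxm1 in dividing cells. H3K27me3 is placed by Polycomb repressive complex 2, whose catalytic subunit is Ezh2 or its paralog Ezh1, and in development it typically covers the genes of lineages that a tissue does not follow.

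Depth was read from the lists as the mean count per 200 bp window. It was lowest at 0.0751 in E15.5 WT replicate 1 and highest at 0.698 in E12.5 WT replicate 2. The lists held between 5008 and 13289 intervals and between 573838 and 6846250 counts in them. Scaled counts below are counts divided by a library's depth relative to the mean of all 12. Chromosome X held between 18.1% and 24.5% of covered bases in E12.5 WT replicate 3 and in the 3 E12.5 KO libraries, and between 0.874% and 5.33% in the other 8. The members are all autosomal and the tests used autosomes. Depth was recovered without leaving out chromosome X, and the part of the chromosome X difference in the E12.5 comparison of KO with WT was not tested. None of 10 housekeeping genes had an interval in any library, and 7 of 8 MGE marker genes had one in all 12. Ezh2 itself had none, so its deletion was not measured here.

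The mark was found at most of the family. An interval was present in all 12 libraries at 26 of 36 members, where 11.6% of all protein-coding genes had one, and in no library at 8 members, where 61.3% of genes had none. All 3 endoderm and floor plate genes, all 6 neural genes and 8 of 9 mesoderm genes were marked in every library. Among the 8 genes of epithelia and early signalling, 6 were, and among the remaining 10 genes (the FoxO and Foxk genes, Foxj2, Foxj3, Foxm1, Foxn2 and Foxn3), most of them active in many cell types, only Foxo1, Foxo3 and Foxo6 were. The 8 members without an interval in any library were Foxi1 (inner ear and kidney), Foxn1 (thymic epithelium), Foxm1 (cell division), and Foxj2, Foxj3, Foxk1, Foxk2 and Foxn2. The remaining members, Foxn3 and Foxs1, had an interval in 5 libraries each. The number of members with an interval was nearly the same in each group: 27 on average in E12.5 WT, E12.5 KO and E15.5 KO, and 26.3 in E15.5 WT.

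Promoter sequences show how far base composition separated marked from unmarked members. RefSeq promoter entries (GRCm38.p6) were matched by symbol for 23 of 36 members, and the 250 bases before the start site are printed 5′ to 3′ on the strand of the gene, with every CG dinucleotide, the target of DNA methylation, in capitals. Foxf2 (chr13:31625566-31625815, plus strand) and Foxd3 (chr4:99656049-99656298, plus strand) stand for wide domains present in every library, Foxo3 (chr10:42276696-42276945, minus strand) for the gene whose interval differed most, and Foxi1 (chr11:34208090-34208339, minus strand) and Foxk2 (chr11:121259737-121259986, plus strand) for unmarked members with few and with many CGs.
Foxf2: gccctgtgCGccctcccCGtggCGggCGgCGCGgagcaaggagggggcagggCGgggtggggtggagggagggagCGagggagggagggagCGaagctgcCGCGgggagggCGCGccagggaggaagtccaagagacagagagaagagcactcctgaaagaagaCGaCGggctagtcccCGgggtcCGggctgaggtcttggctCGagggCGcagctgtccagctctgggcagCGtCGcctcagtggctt
Foxd3: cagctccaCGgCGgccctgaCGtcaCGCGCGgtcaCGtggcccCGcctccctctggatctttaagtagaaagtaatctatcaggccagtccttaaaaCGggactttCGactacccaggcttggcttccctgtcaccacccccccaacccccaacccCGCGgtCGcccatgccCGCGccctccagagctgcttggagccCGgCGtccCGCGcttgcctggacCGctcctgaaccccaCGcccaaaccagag
Foxo3: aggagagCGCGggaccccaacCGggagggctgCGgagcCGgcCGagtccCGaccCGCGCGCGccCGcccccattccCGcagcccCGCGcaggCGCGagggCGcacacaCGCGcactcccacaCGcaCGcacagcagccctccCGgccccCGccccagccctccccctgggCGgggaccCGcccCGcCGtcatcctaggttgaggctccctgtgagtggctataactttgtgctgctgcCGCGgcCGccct
Foxi1: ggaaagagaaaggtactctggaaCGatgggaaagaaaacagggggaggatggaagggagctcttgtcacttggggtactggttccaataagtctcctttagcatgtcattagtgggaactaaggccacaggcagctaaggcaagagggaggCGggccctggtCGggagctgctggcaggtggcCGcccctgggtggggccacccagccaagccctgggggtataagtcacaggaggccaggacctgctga
Foxk2: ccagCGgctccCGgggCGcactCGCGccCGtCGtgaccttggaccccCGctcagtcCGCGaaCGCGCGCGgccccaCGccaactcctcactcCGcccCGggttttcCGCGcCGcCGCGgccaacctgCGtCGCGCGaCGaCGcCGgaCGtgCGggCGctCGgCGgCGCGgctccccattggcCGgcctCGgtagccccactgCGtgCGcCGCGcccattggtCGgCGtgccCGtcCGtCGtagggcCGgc
Foxf2 and Foxd3 had 21 CGs each, Foxo3 had 31, Foxi1 had 4 and Foxk2 had 48. CG reads the same on both strands and no matches overlap. Among the 17 members with an entry that were marked in every library the count ranged from 3 at Foxi2 to 31 at Foxo3, with a median of 18. Among the 5 unmarked members it was 4 at Foxi1, 7 at Foxn1, 34 at Foxj3, 36 at Foxj2 and 48 at Foxk2. Over all 17273 genes with an entry, the median was 14 for genes marked in every library and 6 for genes marked in none, and 51.0% of promoters had at least 10 CGs. Foxj2, Foxj3 and Foxk2 lay above every marked member with an entry in CG count, and the unmarked lineage genes Foxi1 and Foxn1 lay near the median of unmarked genes.

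**Figure D1:**
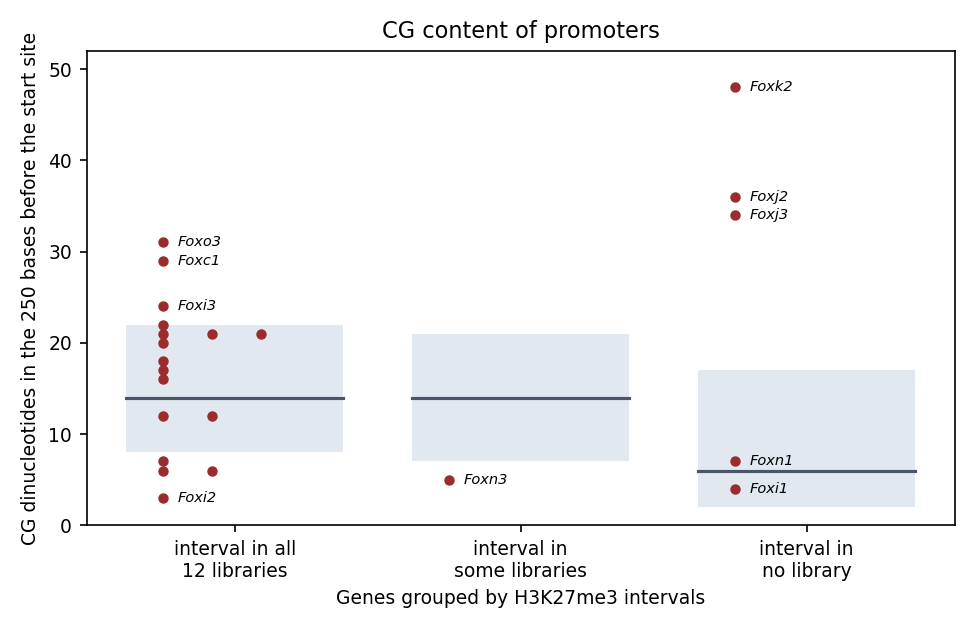
Number of CG dinucleotides in the 250 bases before the start site for the 23 members with a promoter entry (red points), by whether an H3K27me3 interval was present in all 12, some or none of the libraries. Grey boxes span the middle 50% of all genes in that class and the dark line is their median; Foxj2, Foxj3 and Foxk2 lie above every marked member.

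The marked members carried dense and wide domains. The mean over the 12 libraries exceeded 100 scaled counts per kb of interval at 16 of the 26, where 15.46% of the 2491 autosomal genes with an interval in every library did (385 genes). The median member had 165 scaled counts per kb over a median width of 25100 bp, and the median gene 29.1 over 7400 bp. In these 16 members the level ran from 133 at Foxc1 to 263 at Foxf2. The whole gene window was covered in every library at 14 members, among them Foxa1, Foxa2, Foxb1, Foxc1, Foxd3 and Foxl2. The other 10 members, all at or below 98.6 scaled counts per kb, were Foxq1, Foxi3, Foxn4, Foxi2, Foxh1, Foxo6, Foxa3, Foxj1, Foxo1 and Foxo3.

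**Figure D2:**
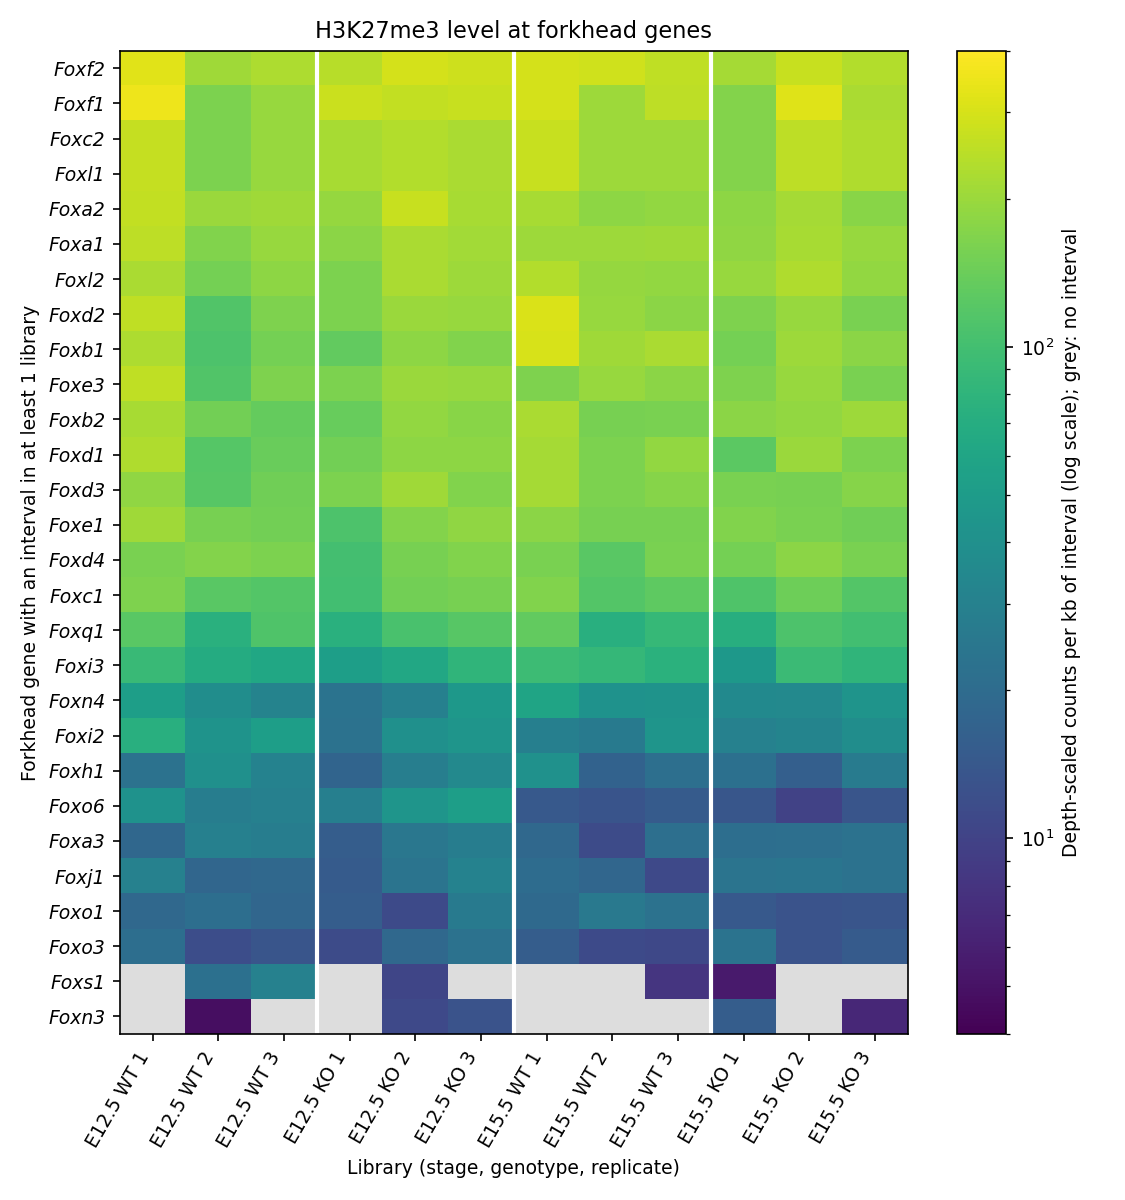
Depth-scaled counts per kb of interval (colour, log scale) for the 28 members with an interval in at least 1 library, in rows ordered by mean, across the 12 libraries in columns. The upper 16 members lie near or above 100 in every library, the FoxO genes near 10 to 50, and grey cells mark libraries without an interval at Foxs1 or Foxn3.

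The highest mean levels were at Foxf2, Foxf1 and the interval shared by Foxc2 and Foxl1, all mesoderm genes. Foxf2, a regulator of gut and vascular mesenchyme, had 328, 209 and 227 scaled counts per kb in E12.5 WT and 245, 299 and 281 in E12.5 KO. At E15.5 it had 299, 288 and 259 in WT and 217, 270 and 237 in KO. Foxf1, its paralog in lung and gut mesenchyme, ranged from 161 to 353 over the 12 libraries with a mean of 248. In this level per kb, WT and KO libraries overlapped at both genes at both stages. In scaled counts, all 3 KO values of Foxf1 lay below all 3 WT values at E12.5. In 3 libraries, E12.5 WT replicates 2 and 3 among them, the interval of Foxf1 also took in Foxc2 and Foxl1. Summed over the same stretch in every library, the E12.5 groups overlapped, with 18236, 13821 and 13932 in WT and 13131, 16219 and 15375 in KO. Foxd1, a gene of kidney stroma, Foxd2 and the ovarian regulator Foxl2 had means of 171, 191 and 199. Foxc1, which acts in meninges and eye mesenchyme, lay lowest of the dense group at 133.

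Of the endoderm and floor plate genes, Foxa2, which specifies the floor plate, had a mean of 209.7 scaled counts per kb and the widest domain, 38800 bp at the median, of the members that did not share an interval. Foxa1 had 203 over 27000 bp. Foxa3, a gene of liver endoderm, had 21.9 over 4600 bp, in the range of the FoxO genes. The neural genes also spanned both levels: Foxb1 (diencephalon), Foxb2, Foxd3 (neural crest) and Foxd4 had means between 154 and 187, while Foxn4, which acts in retinal and spinal progenitors, had 40.0 and Foxj1, the switch for motile cilia, had 21.4. Covered bases in the gene window were lowest at Foxj1, Foxi2 and Foxa3 and highest at Foxo6, Foxa1 and Foxf2. They ran from 13623 to 25184 bp at Foxo6 and were 12402 bp in every library at Foxa1. The body of Foxo6 is 20184 bp long, where the median of the members marked in every library is 3512.5 bp. At Foxj1 they were 4200, 6799 and 7600 bp in E12.5 WT and 5000, 5200 and 4200 bp in E12.5 KO. At E15.5 they were 4400, 4600 and 8197 bp in WT and 4000, 3200 and 3000 bp in KO. The highest value was in E15.5 WT replicate 3 and the lowest in E15.5 KO.

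Neighbouring forkhead genes shared intervals. On chromosome 8, Foxf1 (chr8:121084386-121088154), Foxc2 (chr8:121116171-121118895) and Foxl1 (chr8:121127685-121130644) lie close together, with 28.0 kb between Foxf1 and Foxc2 and 8.789 kb between Foxc2 and Foxl1. Foxc2, which acts in lymphatic and somite development, and Foxl1, a gene of gut mesenchyme, were inside the same interval in all 12 libraries, so their counts are the same measurement. In E12.5 WT replicates 2 and 3 and in E15.5 KO replicate 1 that interval also took in Foxf1 and spanned 85800, 71000 and 69400 bp. In the other 9 libraries it was between 20400 and 28200 bp wide. On chromosome 4, Foxd2 and the lens gene Foxe3, 15544 bp apart, shared an interval in 11 libraries, all but E15.5 WT replicate 1. On chromosome 13, Foxq1, Foxf2 and Foxc1 lie 64.8 and 175 kb apart and never shared an interval.

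**Figure D3:**
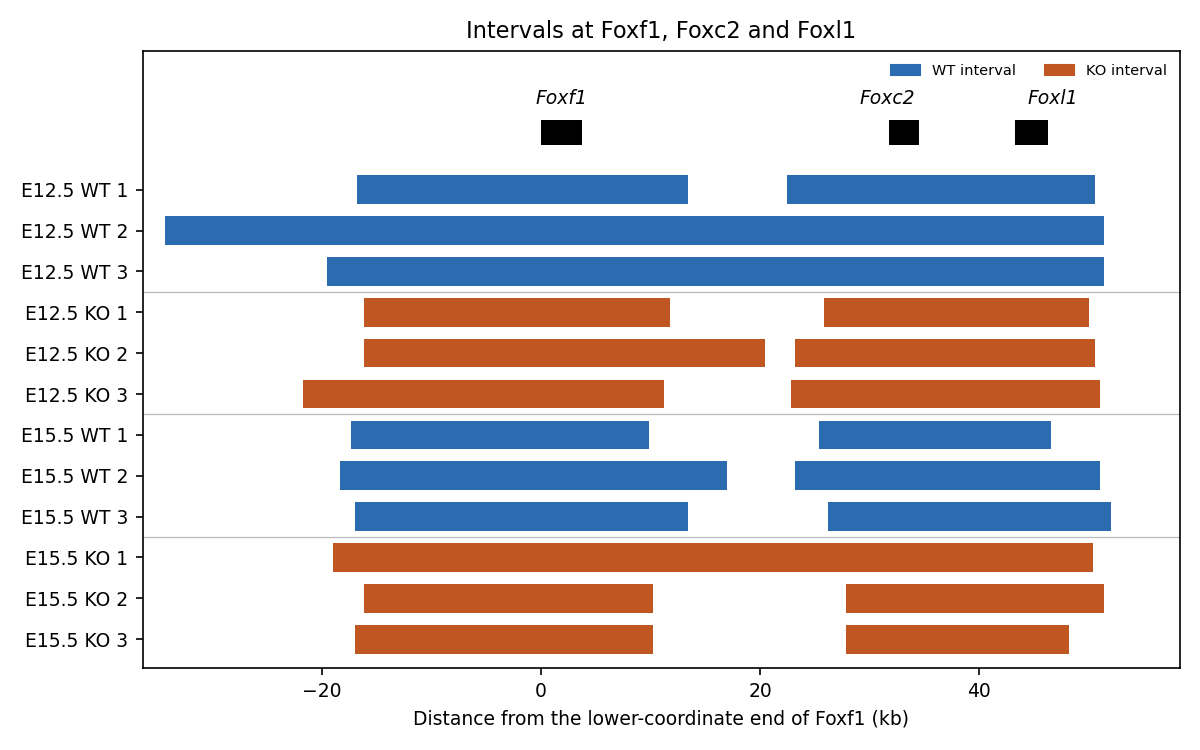
Intervals at Foxf1, Foxc2 and Foxl1 in each library (blue WT, orange KO), as distance in kb from the lower-coordinate end of Foxf1; black boxes are the genes. Foxc2 and Foxl1 lie in the same interval in all 12 libraries, and in 3 of them it reaches across Foxf1.

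The effect of Ezh2 loss was tested with edgeR's quasi-likelihood test on the counts per gene window, over all autosomal genes with an interval in every library compared and with Benjamini-Hochberg adjustment. Results are log2 changes with standard errors, and a gene was called at an adjusted p under 0.05. At E12.5 counts at Foxo3, Foxc2 and Foxl1 were lower in KO, and no member was called higher. These are 3 of 26 members tested, from 2 loci, where 4.05% of 3139 genes were called, all 127 of them lower. The median change was -0.20 over the members and -0.57 over all genes. With TMM factors, which centre the genes near 0, the median of all genes was -0.05, 38 genes were called lower and 9 higher, and the members called were Foxo3 lower and Foxo6 higher (0.92, adjusted p = 0.0364). Of 8 MGE marker genes tested at E12.5, edgeR called none and DESeq2 called 5 higher in KO. By edgeR 3 of the 8 had an unadjusted p under 0.05, where 905 of 3139 genes did. The part of these marker genes in the results was not tested. In bulk tissue, fewer nuclei with the mark and less mark per nucleus cannot be told apart.

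Foxo3 (chr10:42181845-42276695, GRCm38) is a target of insulin and stress signalling that supports neural stem cells. It had 250.4, 371 and 409 scaled counts in E12.5 WT and 78.4, 80.2 and 158 in E12.5 KO. All 3 KO values lay below all 3 WT values. The log2 change was -1.71 (SE 0.39, adjusted p = 0.0224). Depth was 0.117, 0.698 and 0.481 in these WT libraries and 0.212, 0.272 and 0.243 in KO, and its part in the difference was not tested. Without WT replicate 3, KO replicate 1 or KO replicate 2 the adjusted p was 0.0536, 0.226 and 0.101, with changes of -1.56, -1.53 and -1.54, and with column sums as library sizes it was 0.109.

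Summed over the gene, the intervals at Foxo3 were shorter in E12.5 KO, at a density within the spread of WT. They spanned 11800, 31400 and 30600 bp in E12.5 WT and 6800, 4200 and 7000 bp in E12.5 KO, while the level per kb was 15.47 ± 5.04 in WT and 17.7 ± 5.65 in KO (SD, n = 3 each). Each library had 1 interval within 2500 bp of the start site, which had 193, 195 and 234 scaled counts in WT and 78.4, 59.2 and 119 in KO. Intervals farther inside the gene had 57.6, 176 and 175 in WT, and 0, 21.0 and 39.5 in KO. For both sets every KO value lay below every WT value, and the split was chosen after seeing the data. The start-site interval spanned 5000, 7000 and 9000 bp in E12.5 WT and 6800, 2200 and 2400 bp in E12.5 KO, with overlap. The 250 promoter bases printed above were inside an interval in 3 of 3 E12.5 WT libraries and 1 of 3 E12.5 KO libraries, and in 2 of 3 E15.5 WT and 0 of 3 E15.5 KO libraries. At the other 16 members with a promoter entry and an interval in every library, the promoter was inside one in all 12 libraries.

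**Figure D4:**
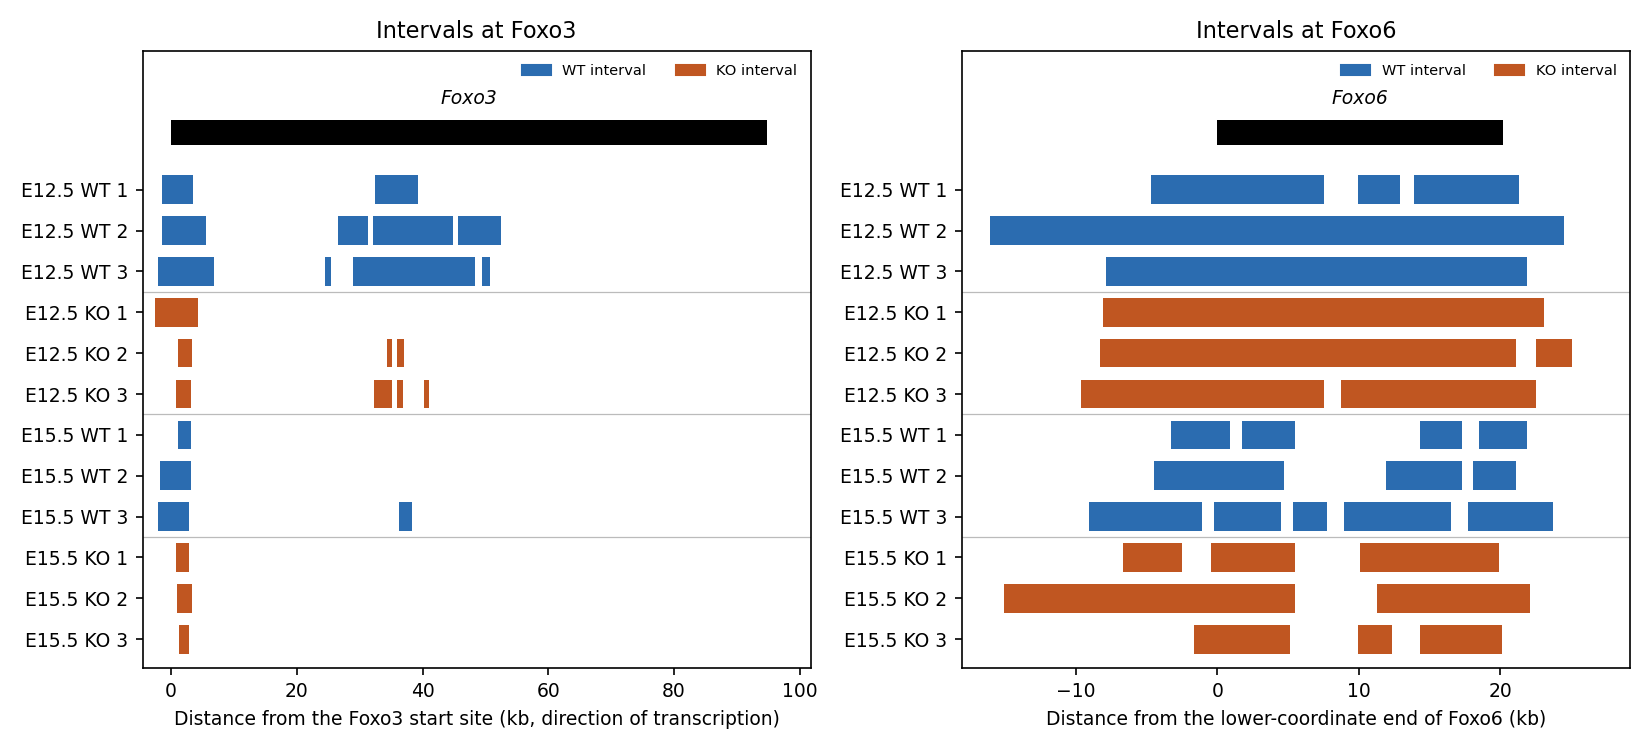
Intervals at Foxo3 (left, distance in kb from the start site in the direction of transcription) and at Foxo6 (right, distance in kb from the lower-coordinate end of the gene) in each library (blue WT, orange KO). Intervals farther than 2500 bp from the start site of Foxo3 appear in all 3 E12.5 WT libraries, in 2 of 3 E12.5 KO libraries and in 1 of 6 E15.5 libraries, and the widest interval at Foxo6 ranges from 12200 to 40600 bp at E12.5 and from 4200 to 20600 bp at E15.5.

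The call at Foxc2 and Foxl1 moved with the joining of intervals. Their shared interval had 7551, 13821 and 13878 scaled counts in E12.5 WT and 5307, 6475 and 6281 in E12.5 KO, a change of -0.96 (SE 0.25, adjusted p = 0.0427). The groups did not overlap, and the high values are the WT libraries in which the interval also took in Foxf1. When counts were summed over merged regions, so that each library was measured over the same stretch, WT had 18236, 13821 and 13932 and KO had 13131, 16219 and 15375. The groups overlapped and the change was -0.04 (SE 0.20, adjusted p = 0.877). Merging was chosen after seeing the data. With counts apportioned to the gene window the change was 0.12 at both genes. Foxf1 itself had a change of -0.54 (SE 0.21, adjusted p = 0.138).

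Across the family, the 3 KO values lay below the 3 WT values at 9 members at E12.5 (Foxb2, Foxc2, Foxf1, Foxi2, Foxl1, Foxn4, Foxo1, Foxo3 and Foxq1), where 33.0% of all genes tested did. Foxc2, Foxl1 and Foxf1 are not separate cases, since their intervals were joined in E12.5 WT replicates 2 and 3. Over merged regions WT and KO overlapped at all 3 of these genes. At no member did they lie above, where 0.350% did. Foxo1, the FoxO gene best known from insulin signalling, had 139.6, 160.0 and 131 scaled counts in WT and 68.6, 49.6 and 116 in KO, with a change of -0.88 (SE 0.41, adjusted p = 0.168). At Foxo1 the interval was 7400, 7600 and 7200 bp wide in WT and 4400 bp in each KO library. Of the 16 members above 100 scaled counts per kb, 13 had a change within 0.5 of 0, where 39.5% of all genes tested did, with Foxa2 at 0.02, Foxf2 at -0.02 and Foxd3 at -0.06. With TMM factors 14 did, where 77.2% of all genes did, and the median of the 16 moved from -0.14 to 0.39. Among the 10 sparser members, changes ran from -1.71 at Foxo3 to 0.41 at Foxo6.

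At E15.5 no member was called by edgeR, and DESeq2 called 0 members. By edgeR none of the 26 had an unadjusted p under 0.05, where 303 of 2694 genes did. In that comparison 0.483% of 2694 genes were called, 2 lower (0.0742%) and 11 higher (0.408%). The median change was -0.02 over the members and -0.01 over all genes. Foxo3 had 31.1, 54.2 and 76.3 scaled counts in WT and 50.9, 31.3 and 24.1 in KO. The groups overlapped, and the change was -0.69 (SE 0.41, adjusted p = 0.561). Foxh1, a partner of Smad proteins in Nodal signalling, and Foxo1 were lower in every KO library than in every WT library, where 8.05% of genes were. Foxh1 had 149, 153 and 125 scaled counts in WT and 124, 107 and 92.5 in KO. Foxn4, by contrast, was higher in every KO library, where 11.1% of genes were, with 540, 526 and 574 in WT and 650.5, 583 and 593 in KO. Its change of 0.16 had an SE of 0.10 and an adjusted p of 0.584. At Foxo1 the intervals were 5400, 4600 and 4400 bp wide in WT and 5400, 7000 and 6000 bp in KO, the opposite order to E12.5, with overlap between the groups.

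**Figure D5:**
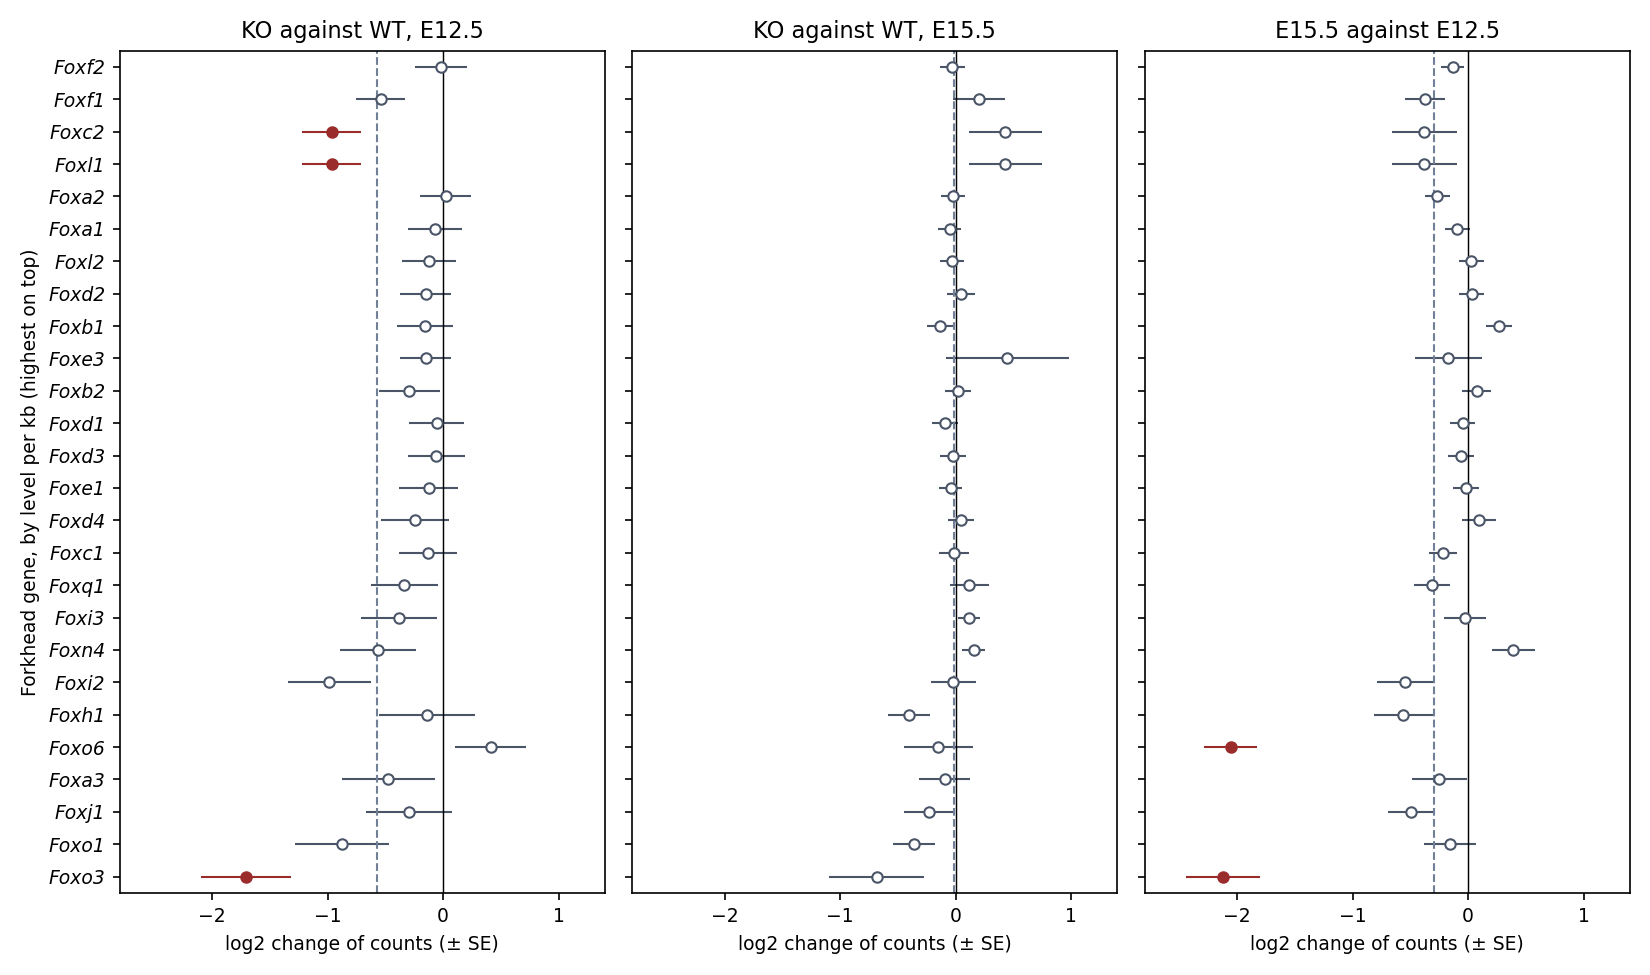
log2 change of counts with its standard error for the 26 members with an interval in every library, for KO against WT at E12.5 and at E15.5 and for E15.5 against E12.5 over both genotypes, members ordered by level per kb. Filled red points have an adjusted p under 0.05 (edgeR) and the dashed line is the median of all genes tested; with TMM factors that median lies at -0.05 at E12.5 and -0.01 for the stages.

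Over both stages together edgeR called no member for KO against WT, where 0.963% of 2491 genes were called. Of all genes, 23 (0.923%) were lower and 1 (0.0401%) was higher. With TMM factors 49 were lower and 53 higher. By edgeR 2 of 26 members, Foxo3 and Foxo1, had an unadjusted p under 0.05, where 525 of 2491 genes did. The difference was -1.26 at Foxo3 (SE 0.31, adjusted p = 0.0775) and -0.63 at Foxo1 (SE 0.23, adjusted p = 0.187). Foxo3 was called with TMM factors (adjusted p = 0.0215), with DESeq2 (1.17e-05), with apportioned counts (0.0429) and over merged regions (0.000413). It was also called without E15.5 WT replicate 1 (0.0346) or E15.5 KO replicate 1 (0.0309). The difference between the stages in the effect of KO was tested as an interaction. No member was called by edgeR, where 0.562% of 2491 genes were. By edgeR 5 of 26 members had an unadjusted p under 0.05, where 686 of 2491 genes did. DESeq2 called 1 member, Foxo6, which was lower, among 5 genes that it called lower. For Foxo3 the interaction was 1.02 (SE 0.56, adjusted p = 0.229), so a smaller effect at E15.5 was not shown. Without E12.5 WT replicate 1, 2 members were called higher in the interaction, and without E12.5 KO replicate 3, 6 were. Over the fits without a library the number of all genes called higher ran from 0 to 959, where it was 14 in the main fit.

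Covered bases in the gene window gave no call. With limma on their log2 values, 0 of 26 members and 0.0% of all genes were called in each of the 3 comparisons of KO with WT, and no other tool was run on them. The number of members with an unadjusted p under 0.05 was 2 at E12.5 (Foxo1 and Foxo3), 1 at E15.5 (Foxo1) and 2 over both stages (Foxj1 and Foxo3). Over all genes it was 310 of 3139, 154 of 2694 and 67 of 2491. At E12.5 the change was -1.94 (SE 0.48, adjusted p = 0.439) at Foxo3 and -0.59 (SE 0.05, adjusted p = 0.285) at Foxo1. Most dense members cannot change in this measure, since their windows were covered throughout.

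Between stages, the 2 members called lower at E15.5 were Foxo3 and Foxo6, where 25.6% of 2491 genes were called, 545 lower (21.9%) and 92 higher (3.69%). With TMM factors 502 genes were lower and 492 higher. The median change of all genes was -0.29, and -0.01 with TMM factors. The median over the members was -0.16, and no member had all E15.5 values above all E12.5 values, where 1.20% of genes did.

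Foxo6 (chr4:120267078-120287261) is the FoxO gene of the developing forebrain and hippocampus. It had 953, 1152 and 880 scaled counts in E12.5 WT and 906, 1415 and 1652 in E12.5 KO. At E15.5 it had 207.5, 231 and 430 in WT and 276, 311 and 203 in KO. All 6 libraries of E15.5 lay below all 6 of E12.5, where 6.90% of genes did, and WT and KO overlapped at each stage. The change was -2.05 (SE 0.23, adjusted p = 6.5e-05). At E12.5 the gene was covered by 1 to 3 intervals, the widest from 12200 to 40600 bp, and at E15.5 by 2 to 5, the widest from 4200 to 20600 bp. The level per kb was 33.4 ± 7.65 in E12.5 WT and 14.2 ± 0.927 in E15.5 WT, and 42.2 ± 12.2 in E12.5 KO and 12.4 ± 2.19 in E15.5 KO (SD, n = 3 each). The summed width of the intervals averaged 31000 bp in E12.5 WT and 31400 bp in E12.5 KO, and 20267 bp in E15.5 WT and 22133 bp in E15.5 KO, with overlap between the stages.

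Foxo3 fell by 2.12 on the log2 scale between the stages (SE 0.32, adjusted p = 0.000486), and its 6 values at E15.5 lay below its 6 at E12.5. Its mean went from 343 ± 82.9 to 53.9 ± 22.6 scaled counts in WT and from 106 ± 45.5 to 35.4 ± 13.9 in KO (SD, n = 3 each). Intervals farther than 2500 bp from the start site were found in 5 of 6 E12.5 libraries and in 1 of 6 at E15.5, WT replicate 3. Depth ran from 0.117 to 0.698 at E12.5 and from 0.0751 to 0.346 at E15.5, and its part in the difference was not tested. The calls at Foxo3 and Foxo6 held in each of the 21 alternatives run for the stage comparison. Foxo1 had a difference of -0.16 (SE 0.23, adjusted p = 0.624). Of the MGE marker genes, 5 of 7 tested also fell between the stages and Nkx2-1 rose, while with TMM factors 4 fell, without Lhx6, and Nkx2-1 and Lhx8 rose. The part of a change in cell makeup in the FoxO results was not tested.

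Calls at 5 other members depended on the scaling. With TMM factors or DESeq2, 5 of 26 members (Foxb1, Foxb2, Foxd4, Foxi3 and Foxn4) were called higher at E15.5. Many other genes were too: 577 of 2491 with DESeq2, and with TMM factors the number given above. These calls are therefore not particular to the members. The largest change was at Foxn4, 0.68 with TMM factors (adjusted p = 1.62e-05) against 0.39 (SE 0.18, adjusted p = 0.124) by depth. Foxi3 had a change of -0.03 by depth and 0.27 with TMM factors. Without E12.5 KO replicate 1, 8 members were called lower at E15.5, and without E15.5 KO replicate 1, 5 were. Leaving out a library also moved the number of all genes called lower, from 545 in the main fit to between 308 and 891.

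Foxs1 and Foxn3 were marked in part of the libraries. Foxs1, a gene of vascular mural and sensory cells, had 728 and 448 scaled counts in E12.5 WT replicates 2 and 3, and 10.5, 24.3 and 24.7 in E12.5 KO replicate 2, E15.5 WT replicate 3 and E15.5 KO replicate 1. The merged region that overlapped its window had counts in all 12 libraries, from 255 to 728, and most of the counts in E12.5 WT replicates 2 and 3 came from intervals of 26200 and 11800 bp beside the gene, which reached into the flank of its window. Foxn3, a broadly expressed gene with a body of 373587 bp, had 10.4 scaled counts in E12.5 WT replicate 2, 13.4 and 23.5 in E12.5 KO replicates 2 and 3, and 21.8 and 29.3 in E15.5 KO replicates 1 and 3. Those intervals covered at most 1.16% of its window, and E12.5 WT replicate 2 was the deepest library.

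Genes that work with these factors were counted in the same way, against the 11.6% of all genes marked in every library. Of 10 endoderm and floor plate regulators, 8, among them Shh, Gata4 and Pdx1, were marked in every library. Of 10 mesenchymal regulators, 9 were, among them Twist1 and Hand2. Of 10 multiciliated-cell genes, only Mcidas and Ccno were, which lie next to each other. Of 10 FoxO target genes, only Bcl6 and Klf15 were, and of 10 mitotic targets of Foxm1 none was. For KO against WT, edgeR called none of the 8, 9, 3 and 3 genes tested from the first 4 of these lists at E12.5, with 0, 1, 1 and 0 at an unadjusted p under 0.05 and DESeq2 calling 1, 0, 0 and 0, where the call was Shh, higher. Between the stages Prrx1, Meox2 and Twist2 were lower at E15.5, with changes of -1.95, -1.19 and -0.63, as were Bcl6 (-0.67), Mcidas and Ccno (-0.57 each), and Prox1 was higher (0.54). With TMM factors Mcidas and Ccno were not called. Mean scaled counts of these 2 genes were the same in E12.5 WT (4119), E15.5 WT (2339) and E15.5 KO (2575). In E12.5 KO they were 3221 and 3218, so their changes are largely 1 measurement.

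T-box genes, another family of lineage regulators, were marked in every library at 12 of 16. For KO against WT at E12.5 edgeR called none of the 12, none had an unadjusted p under 0.05, and DESeq2 called 0, with a median change of -0.14. Among the autosomal forkhead genes outside the 36, Foxp4 was marked in every library and was lower in KO at both stages. It had 1584 ± 477 scaled counts in E12.5 WT and 199 ± 44.9 in E12.5 KO (SD, n = 3 each), with a change of -2.99 (SE 0.35, adjusted p = 0.00019 by edgeR). At E15.5 its change was -1.08 (adjusted p = 0.0249).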

How the data were processed

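H3K27me3 was measured by bulk CUT&Tag in 12 libraries. The interval lists were made per library with SICER after cutadapt, Bowtie2, SAMtools and Picard on GRCm38 (mm10), per the submitters' processing notes; thresholds were not given in the sources used here. The whole-number count and the score of each interval were used as the authors deposited them. Intervals lie on a 200 bp grid and are at least 800 bp apart. Scores of single-window intervals matched minus the natural log of a Poisson probability of the count, and this gave each library's mean count per window (largest misfit 0.00407), used as depth on the assumption that it follows total reads. Counts differ in precision with depth, and an interval that was not called has no count.

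Genes came from a GRCm38 RefSeq table without strand. Counts were summed per gene window (2500 bp flanks) and tested with edgeR 4.0.16 (quasi-likelihood, Benjamini-Hochberg, threshold 0.05, library sizes by depth) in R 4.3.3, covered bases with limma 3.58.1. The test scripts were run on simulated data first. Alternatives included TMM factors, DESeq2 1.42.0, other windows and filters, merged regions, a block for the replicate number, and fits without each library. Values by library were given for members with an adjusted p under 0.05, in part of the libraries, sharing intervals, or highest or lowest in level or coverage; other genes of the lists were named by adjusted p, and some are not reported here. The members and lists were chosen with earlier results of these data known. Python 3.11.15, pandas 2.3.3, scipy 1.17.1 and matplotlib 3.10.9 were used.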

Additional observations from a re-analysis of the deposited data

How the results depend on the processing

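Of the member counts, 329 values under alternatives stayed within 1.5 times the reported one and 29 moved. The members called lower in E12.5 KO, 3 by depth, numbered 1 with TMM factors, DESeq2, apportioned counts, chromosome X included or merged regions, and 0 with column sums or with intervals missing from up to 1 library of each group; 1 was called higher with TMM factors or DESeq2. Leaving out a library gave 0 to 5 lower. Over both stages 1 was lower with TMM factors, DESeq2, apportioned counts or merged regions, and 0 to 1 without a library. Between the stages 5 were higher with TMM factors or DESeq2 and 4 with column sums, and 2 to 8 were lower without a library. In the interaction 1 was lower with DESeq2, and 0 to 6 were higher without a library. For covered bases at E12.5, 0 to 1 was lower without a library. With 10 kb flanks, 27 members on average had an interval in E15.5 WT, 26.3 as reported; without a library the group means ran from 26 to 27.5.

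Directions turned for Foxc2 (0.12) and Foxl1 (0.12) with apportioned counts at E12.5, and for Foxi3 between the stages (0.27 with TMM factors or DESeq2, 0.13 with column sums). Leaving out a library also turned some near-0 values, which ran from -0.33 to 0.26 for Foxo6 at E15.5, and between the stages from -0.0026 to 0.11 for Foxb2, from -0.0094 to 0.16 for Foxd4 and from -0.14 to 0.067 for Foxi3. The cause was not tested. Merged regions and 2 alternatives for covered bases (full interval width, and without genes of constant coverage) were chosen after seeing the data.

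All-gene counts also moved. Leaving out a library gave 11 to 902 lower and 0 to 8 higher at E12.5, and 0 to 2 lower and 0 to 12 higher at E15.5. Over both stages it gave 0 to 39 lower and 0 to 4 higher. Between the stages it gave 308 to 891 lower and 64 to 115 higher, and in the interaction 0 to 959 higher. At E12.5, 127 lower and 0 higher became 38 and 9 with TMM factors, 21 and 1 with column sums, 217 and 3 with apportioned counts and 6 lower with intervals missing from up to 1 library; DESeq2 called 73 higher and merged regions 5. At E15.5, 2 and 11 became 24 and 48 with DESeq2 and 16 and 52 over merged regions, 0 and 1 with intervals missing from up to 1 library, and 17 higher with column sums. Over both stages, 23 and 1 became 49 and 53 with TMM factors, 114 and 105 with DESeq2, 45 and 3 with apportioned counts, 123 and 12 over merged regions and 0 and 0 with intervals missing from up to 1 library; column sums called 14 higher. Between the stages 92 higher became 492 with TMM factors, 286 with column sums and 577 with DESeq2. In the interaction 14 higher became 6 with TMM factors, 38 with DESeq2 (and 5 lower), 25 with apportioned counts, 105 over merged regions (and 1 lower) and 0 with intervals missing from up to 1 library.

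Same-numbered WT and KO libraries correlated between -0.352 and 0.227 in their deviations, with 2 of 6 pairs over 0.1. Replicates 1, 2 and 3 had 0.227, 0.0199 and 0.168 at E12.5, and -0.223, -0.202 and -0.352 at E15.5. So few pairs cannot decide whether the numbers pair the libraries, and the main fits used no block. With the replicate number as a block, 3 members were lower at E12.5 and 0 in the other fits, and 305, 0, 5 and 52 genes were called at E12.5, at E15.5, over both stages and in the interaction. The stage comparison could not be fitted with a block nested in stage.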

Other observations

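Marker genes of the MGE were themselves marked: Nkx2-1, Lhx6, Lhx8, Dlx1, Dlx2, Gad1 and Gad2 had an interval in all 12 libraries. Between the stages, by edgeR, the counts were lower at E15.5 at Dlx2 (-1.41, SE 0.24, adjusted p = 0.00129), Dlx1 (-1.13, SE 0.15, adjusted p = 0.000171) and Gad1 (-1.11, SE 0.14, adjusted p = 0.000156), as well as at Gad2 and Lhx6, and higher at Nkx2-1 (0.71, SE 0.24, adjusted p = 0.0418). With TMM factors Lhx6 was not called lower. For KO against WT at E12.5, Nkx2-1 had a difference of 1.21 (SE 0.33, adjusted p = 0.0506) by edgeR, and it was called higher with TMM factors and with DESeq2. DESeq2 also called Dlx1, Dlx2 and Gad2 higher at that stage. Of the pallial genes, 7 of 8 were marked in every library, and Emx2 was lower at E15.5 (-0.87, SE 0.13, adjusted p = 0.000419) and lower in KO over both stages (-0.70, SE 0.13, adjusted p = 0.0222). The second of these was not called with TMM factors or DESeq2. Between the stages Emx2 was the only edgeR call among the 7 pallial genes tested, whose median change was -0.06. TMM factors and DESeq2 also called Emx2 lower at E15.5, but called Emx1 and Tbr1 higher.

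Of 6 microglial genes none was marked in every library. Kdr and Cldn5 were, of 6 endothelial genes, and Pdgfrb and Col1a1 of 7 mural and meningeal genes. Col1a1 was lower at E15.5 (-0.77, SE 0.26, adjusted p = 0.0405 by edgeR).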
